A study of Mus musculus with 4 samples.

Results

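NF-κB genes were followed through 4 single-cell RNA libraries of mouse thymic epithelial cells (TECs), 1 library per group. The members are 10 genes of 31053 in the deposited count matrices, chosen by symbol: the subunits Relb, Nfkb2, Nfkb1, Rel and Rela, the inhibitors Nfkbia, Nfkbie and Tnfaip3, and the TRAF- and IAP-family genes Traf1 and Birc3. All 10 were matched and detected in every library. On GRCm38, Relb lies at chr7:19606217-19629438 and Nfkb2 at chr19:46304320-46312385, while Nfkb1 lies at chr3:135584655-135691547, Rel at chr11:23736847-23770970 and Rela at chr19:5637483-5648130. Nfkbia lies at chr12:55489410-55492647, Nfkbie at chr17:45555703-45563169 and Tnfaip3 at chr10:19000910-19015657, with Traf1 at chr2:34941750-34961772 and Birc3 at chr9:7848699-7873186. Levels count transcripts of the whole gene. Each library held EpCAM+CD45-TER119- cells sorted from the thymus of 3 pooled C57BL/6 mice aged 6 weeks. WT-Control mice were female wild type and had received control IgG. WT-RANKL-Ab mice were female wild type and had received a RANKL-neutralizing antibody subcutaneously at 5 mg per kg, given at 4 weeks of age and 2 weeks before analysis. Cd40-/- Control and Cd40-/- RANKL-Ab mice carried a germline Cd40 deficiency in every cell and had received control IgG or the antibody in the same way. The comparison asked how these genes stood in the TECs that remain when RANKL, CD40 or both inputs are removed. No group had a second library, so no difference between groups could be tested. The 95% intervals given cover counting error only.

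NF-κB proteins act as dimers that are held inactive in the cytoplasm until a receptor signal frees them. Receptors of the TNF family, among them RANK, CD40 and the lymphotoxin β receptor, can signal through the kinase NIK to the processing of p100, the product of Nfkb2, which releases p52 with RelB (the alternative pathway). They and other receptors also signal through the IκB kinase complex to dimers of p50, the product of Nfkb1, with RelA or c-Rel (the classical pathway). Several products of NF-κB target genes shut the pathway down again, such as IκBα, IκBε and A20, and medullary TECs (mTECs) are known to need RelB for their development.

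Cells were assigned to classes by marker genes and named only by resemblance ("-like"). Levels are unique molecular identifiers (UMIs) of a gene summed over the cells of a class per 1000000 UMIs of those cells (CPM), and a ratio is the log2 of 2 such levels. After filtering, 28055 cells remained, from 2082 in Cd40-/- RANKL-Ab to 10218 in WT-Control, with median depths of 6086 to 7621.5 UMIs per cell. Classes with under 50 cells in a library are not described there, so the 2 Aire+ mTEC-like cells of Cd40-/- RANKL-Ab were left out. The controls held 2311 (wild type) and 1393 (Cd40-/-) of these cells, and the antibody-treated wild type 167. Cd40 itself stood at 110.0 CPM over all cells in the wild-type control, 28.8 in the antibody-treated wild type, 5.75 in the Cd40-/- control and 4.75 in the antibody-treated Cd40-/- library, low in both deficient libraries as labelled. Strings of 3 or 4 values keep this order of libraries throughout, the last being absent for Aire+ mTEC-like cells. Both Cd40-/- libraries shared 210 cell barcodes, 10.0% of the smaller one, while other pairs shared 0.858% to 1.44%. Leaving the shared barcodes out moved 0 of 270 member ratios beyond their counting intervals. Shifting every class limit by 1.2 times in either direction changed the class of 3630 cells, 12.9% of all. Progenitor-like cells carried CCL21+ mTEC transcripts as well, at a median of 164.5 per 10000 UMIs, and the cells of the gate for early Aire-lineage genes were led by muscle genes and stay unnamed.

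Of the 8 members with a promoter entry in RefSeq on GRCm38.p6, 5 held the κB consensus, a degenerate motif of 10 bases, on either strand within 250 bases before the transcription start that RefSeq gives. Counted by window, 7 of the members' 11 windows held it, and 7.25% of 32851 such windows genome-wide. A window is shown for each member that held a match, with matches in capitals, each written 5′ to 3′ on the strand of the gene. Overlapping matches run together in Nfkb2 and Rel.
Nfkb2, chr19:46304487-46304736, plus strand: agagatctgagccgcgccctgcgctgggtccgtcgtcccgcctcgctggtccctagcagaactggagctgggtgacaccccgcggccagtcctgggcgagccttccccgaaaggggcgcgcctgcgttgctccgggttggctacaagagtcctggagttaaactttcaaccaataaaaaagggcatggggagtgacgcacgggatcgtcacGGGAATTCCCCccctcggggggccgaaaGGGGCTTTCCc
Rel, chr11:23770970-23771219, minus strand: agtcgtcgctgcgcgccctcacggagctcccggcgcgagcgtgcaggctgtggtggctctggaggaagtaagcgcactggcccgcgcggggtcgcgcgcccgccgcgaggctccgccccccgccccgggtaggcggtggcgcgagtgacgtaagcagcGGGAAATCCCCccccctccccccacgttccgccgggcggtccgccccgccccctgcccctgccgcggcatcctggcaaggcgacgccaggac
Nfkbia, chr12:55492648-55492897, minus strand: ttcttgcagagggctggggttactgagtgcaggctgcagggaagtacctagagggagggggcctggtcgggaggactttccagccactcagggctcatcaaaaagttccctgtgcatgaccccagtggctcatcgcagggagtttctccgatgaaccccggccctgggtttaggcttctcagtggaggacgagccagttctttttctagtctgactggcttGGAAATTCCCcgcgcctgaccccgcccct
Nfkbie, chr17:45555450-45555699, plus strand: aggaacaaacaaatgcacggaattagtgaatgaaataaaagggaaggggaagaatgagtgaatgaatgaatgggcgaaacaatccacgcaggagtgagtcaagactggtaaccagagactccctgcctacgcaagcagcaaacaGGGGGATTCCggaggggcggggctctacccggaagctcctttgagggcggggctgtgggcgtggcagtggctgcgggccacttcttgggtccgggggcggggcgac
Tnfaip3, chr10:19015411-19015660, minus strand: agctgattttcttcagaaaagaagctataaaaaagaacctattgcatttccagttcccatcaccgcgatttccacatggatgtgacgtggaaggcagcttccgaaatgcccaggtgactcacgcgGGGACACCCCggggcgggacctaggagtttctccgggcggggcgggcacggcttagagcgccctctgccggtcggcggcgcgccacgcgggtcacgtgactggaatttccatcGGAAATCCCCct
The Nfkb2 window shown held 3 matches, 2 of them overlapping, those of Rel and Tnfaip3 held 2 each, and Nfkbia and Nfkbie held 1 each. For Nfkb2, 2 further windows at other starts held 1 match each, and a further Tnfaip3 window held 0. Of these, the match nearest to its start began 11 bases before it, in Nfkb2. The Nfkb2 window shown lies inside the gene span given above, as does all but the outer end of the Tnfaip3 window shown. The starts that RefSeq gives for these windows thus lie downstream of the start of the span. The letters of the motif were not found in the windows of Rela, Traf1 and Birc3, and Relb and Nfkb1 had no entry. A match is a stretch of sequence and was not tested as a binding site.

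In WT-Control, the alternative subunits stood highest in Aire+ mTEC-like cells. Relb, which encodes RelB, reached 241 CPM there (95% interval 235 to 246) and 53.3 CPM (46.5 to 60.9) in tuft-like cells, the lowest of 15 classes, a 4.52-fold range. Nfkb2 ran between the same classes, from 138 CPM (134 to 143) to 48.0 CPM (41.5 to 55.2). Along both orders most steps were small, and 13 of 14 neighbouring classes had overlapping intervals. Nfkb1 was highest elsewhere, with 94.6 CPM (83.4 to 107) in progenitor-like cells, next to 93.3 CPM in cTEC-like (cortical TEC-like) cells, 59.1 CPM in Aire+ mTEC-like cells and 42.6 CPM in cycling CCL21-low-like cells at the bottom. All 14 neighbouring pairs overlapped for Nfkb1. Rel, encoding c-Rel, was highest in keratinocyte-like cells at 55.2 CPM and lowest in CCL21+ Mgp/Gpx3+-like cells at 14.1 CPM. Rela spanned only 41.0 CPM in cycling CCL21+-like cells to 19.9 CPM in Aire+ mTEC-like cells.

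**Figure D1:**
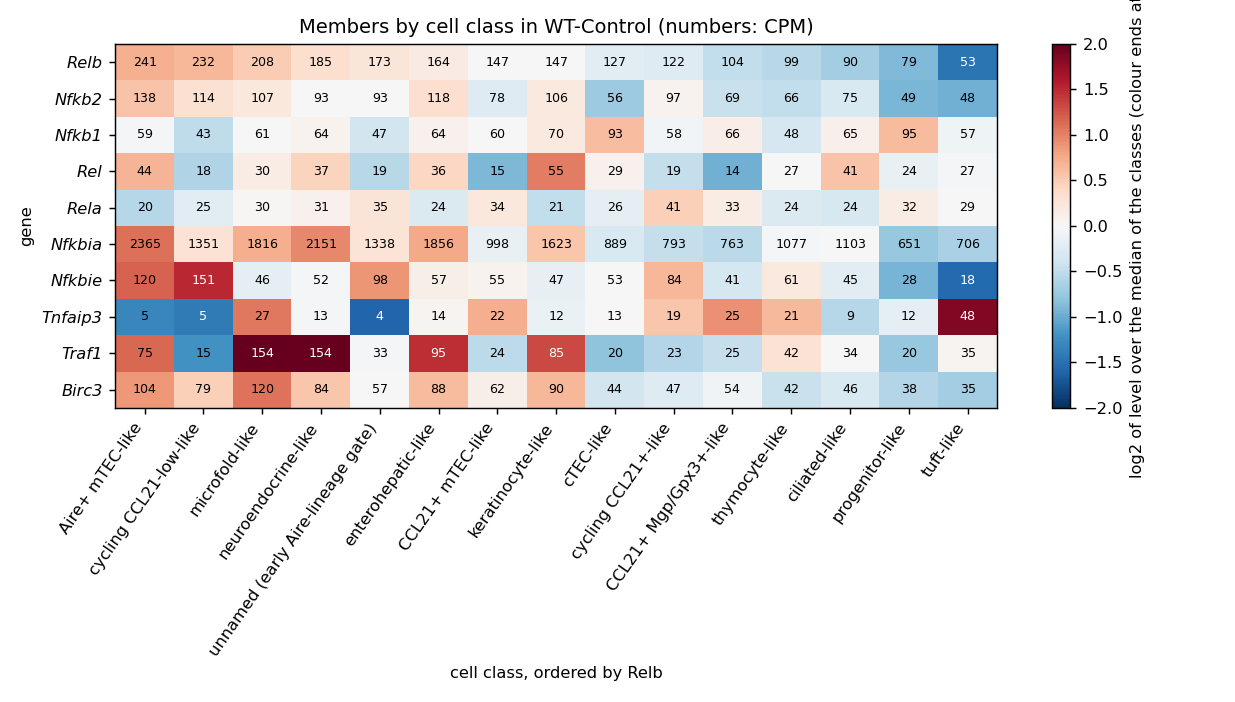
Level of each member (rows) in each of 15 cell classes (columns) of WT-Control in CPM, coloured by the log2 difference from the gene's median over the classes. Relb, Nfkb2 and Nfkbia are highest in Aire+ mTEC-like cells (241, 138 and 2365 CPM) and Tnfaip3 is highest in tuft-like cells (48.0 CPM).

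The inhibitors did not share an order. Nfkbia, encoding IκBα, was highest in Aire+ mTEC-like cells (2365 CPM) and lowest in progenitor-like cells (651 CPM), and only 7 of 14 neighbouring classes overlapped. Nfkbie, encoding IκBε, peaked in cycling CCL21-low-like cells at 151 CPM and was lowest in tuft-like cells at 18.0 CPM, an 8.36-fold range. Tnfaip3, encoding the ubiquitin-editing enzyme A20, had the widest range of the 10 members, 10.9-fold, from 48.0 CPM in tuft-like cells to 4.39 CPM in the unnamed class. Traf1, a signaling adaptor, was highest in neuroendocrine-like and microfold-like cells, at 154 and 153.5 CPM, and lowest in cycling CCL21-low-like cells at 14.8 CPM. The neuroendocrine-like class was led by Pth. Birc3, encoding the ubiquitin ligase cIAP2, ran from 120 CPM in microfold-like cells to 35.1 CPM in tuft-like cells.

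Over the 15 classes of WT-Control, which share 1 library, the log2(CPM + 10) of Nfkbia and Birc3 had a Pearson r of 0.886, and that of Relb and Nfkb2 0.869. The lowest values among the 10 members were -0.731 for Rel with Rela and -0.707 for Nfkbie with Tnfaip3. Among 15540 genes, those most like Relb over these 15 classes were Pkdcc (0.904), Gnb4 (0.892) and Birc2 (0.890), the last of them encoding cIAP1. The genes most like Nfkbia were Ctss (0.969), Dock10 (0.965) and Srgn (0.952). For Birc3 they were Plb1 (0.922), Stap2 (0.913) and Il4i1 (0.909), and for Rela Smyd5 (0.846), Socs3 (0.843) and Pxylp1 (0.839). These values describe 15 points and carry no test.

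Over whole libraries, the members differed in how far their levels moved with the class make-up. Weighting the WT-Control class levels by each library's own class shares gives the level that class make-up alone would produce. In such a sum over all cells, fewer cells of a class and less RNA per cell cannot be told apart. Relb stood at 175, 140, 161 and 77.4 CPM, and the log2 ratio of Cd40-/- RANKL-Ab to WT-Control was -1.18, of which make-up gave -0.86 and the level within classes -0.32. For Traf1, at 56.5, 20.5, 50.7 and 11.8 CPM, the same ratio was -2.26, with -1.33 from make-up. For Nfkbia, at 1571, 912, 1560 and 552 CPM, it was -1.51, with -1.07 from make-up. Thymocyte-like cells were 0.763%, 3.50%, 4.70% and 9.94% of the cells, and without them make-up gave -0.76 for Relb, -1.26 for Traf1 and -0.98 for Nfkbia. Nfkb2 stood at 103, 56.2, 72.9 and 49.7 CPM and Nfkbie at 82.1, 38.6, 58.8 and 29.6 CPM, and both were lower in Cd40-/- Control by more than make-up gave (-0.50 against -0.15 and -0.48 against -0.04). Rel, at 31.6, 21.9, 46.8 and 26.6 CPM, was higher there, by a log2 ratio of 0.57 where make-up gave -0.07.

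Nfkb1, Tnfaip3 and Rela were higher in each of the other 3 libraries than in WT-Control. Nfkb1 was at 61.1 CPM (59.6 to 62.7) in WT-Control, 96.1 (93.3 to 98.9) in WT-RANKL-Ab, 112 (109 to 114) in Cd40-/- Control and 122 (117 to 127) in Cd40-/- RANKL-Ab. Its log2 ratios to WT-Control were 0.65, 0.87 and 0.99, of which make-up gave 0.19, 0.10 and 0.44. Tnfaip3 was at 14.0, 22.1, 23.6 and 31.1 CPM, with log2 ratios of 0.65, 0.75 and 1.15, and make-up gave 0.54, -0.10 and 0.24 of them. In wild-type mice given the antibody most of the Tnfaip3 difference was in make-up, and in the Cd40-/- libraries most was within classes. Rela stood at 26.2, 37.8, 29.8 and 35.3 CPM, by log2 ratios of 0.53, 0.19 and 0.43.

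**Figure D2:**
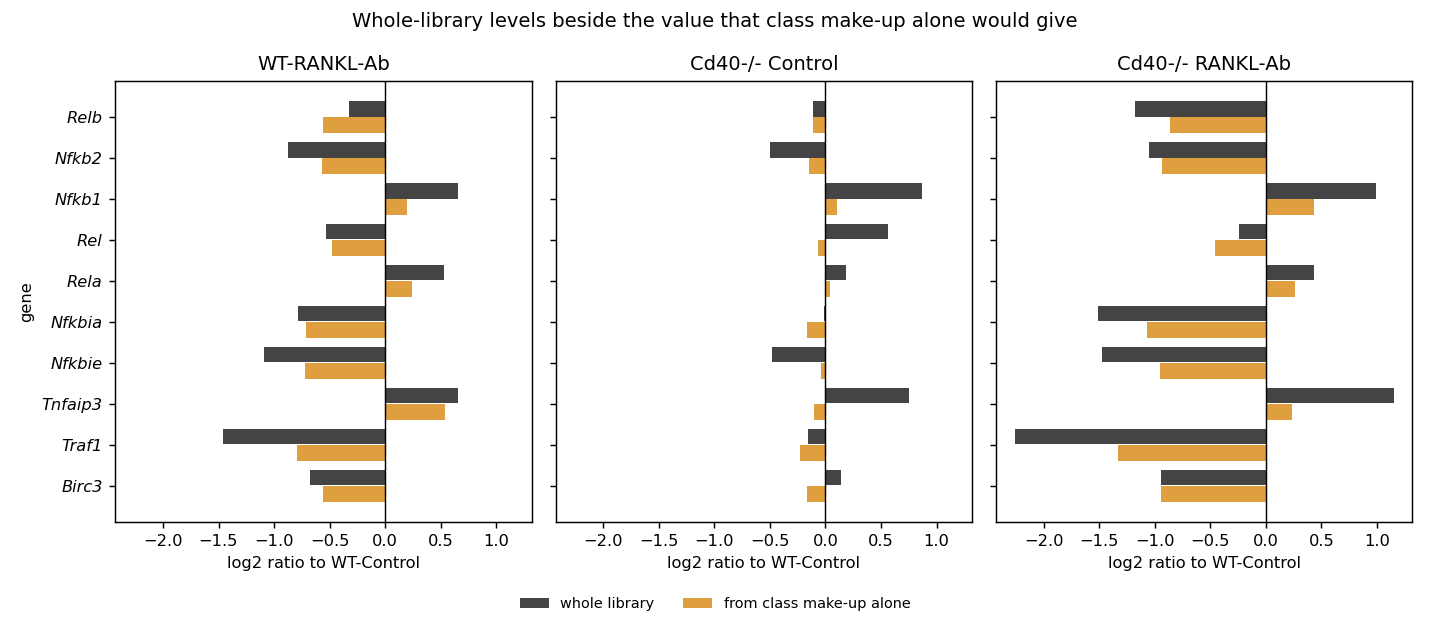
Log2 ratio of each member's whole-library level to WT-Control (grey) beside the ratio that class make-up alone would give (amber), for the other 3 libraries. For Traf1 in Cd40-/- RANKL-Ab the bars are -2.26 and -1.33, and for Nfkb1 in Cd40-/- Control they are 0.87 and 0.10.

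In the CCL21+ and Aire+ mTEC-like classes, Relb did not follow the whole library. The ratios are not centred, and the median ratio over all genes was itself above 0 in the classes described, between 0.0025 and 0.29, so a scaling by trimmed means (TMM) moves every ratio to WT-Control down by 0.04 to 0.27. Relb in CCL21+ mTEC-like cells stood at 147 CPM (139 to 155), 185 (177 to 193), 121 (110 to 133) and 153 (133 to 174). It was thus higher after the antibody in either genotype and lowest in Cd40-/- Control. The CCL21+ Mgp/Gpx3+-like cells showed the same order of wild-type libraries, with 104, 157, 92.3 and 105 CPM. In WT-RANKL-Ab over WT-Control the log2 ratio was 0.33 (0.23 to 0.43) in the former and 0.59 (0.49 to 0.70) in the latter. Aire+ mTEC-like cells held 241, 275 and 261 CPM in the 3 libraries that had them. Progenitor-like cells held 79.2, 87.5, 73.7 and 68.9 CPM. In cTEC-like cells Relb was at 127, 134, 96.7 and 86.0 CPM, and the intervals of both Cd40-/- libraries lay below those of both wild-type libraries. In cTEC-like cells with no Aire UMI this separation from WT-Control was lost, with Relb at 105 (85.9 to 127), 128.5 (118 to 140), 93.2 (84.6 to 102) and 85.5 (76.3 to 95.5) CPM. Against WT-RANKL-Ab, Cd40-/- RANKL-Ab was lower in 5 of 5 classes compared, by log2 ratios of -0.64 to -0.28, and beyond the counting interval in 4. Here and below, counts of classes between libraries leave out thymocyte-like cells.

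Nfkb2 was lower in Cd40-/- Control than in WT-Control in 13 of 14 classes, and in 10 of them the counting interval of the ratio lay below 0. These 14 values share the same pair of libraries and are not replicates. Nfkb2 in CCL21+ mTEC-like cells was at 77.8 CPM (72.2 to 83.8), 64.8 (60.3 to 69.5), 49.1 (42.2 to 56.7) and 76.1 (62.5 to 91.7). In progenitor-like cells it was at 49.3, 34.0, 32.6 and 54.2 CPM. In both classes either single removal was accompanied by a lower level than in WT-Control, while the library with both removals stood near WT-Control. In progenitor-like cells the lower level in WT-RANKL-Ab, a log2 ratio of -0.53, did not hold under all settings, which gave values between -0.71 and 0.07. The log2 ratio of Cd40-/- Control to WT-Control was -0.66 in CCL21+ mTEC-like and -0.60 in progenitor-like cells, and it stayed below 0 under every alternative setting in the 6 classes examined. Within the Cd40-/- mice, Nfkb2 was higher with the antibody in 5 of 5 classes, beyond the interval in 4, with a median log2 ratio of 0.63, and only the small difference in tuft-like cells (0.04) turned its sign under an alternative setting. In thymocyte-like cells, which are not counted here, this log2 ratio was -0.15 (-1.27 to 0.91). Aire+ mTEC-like cells held 138, 113.5 and 118 CPM.

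**Figure D3:**
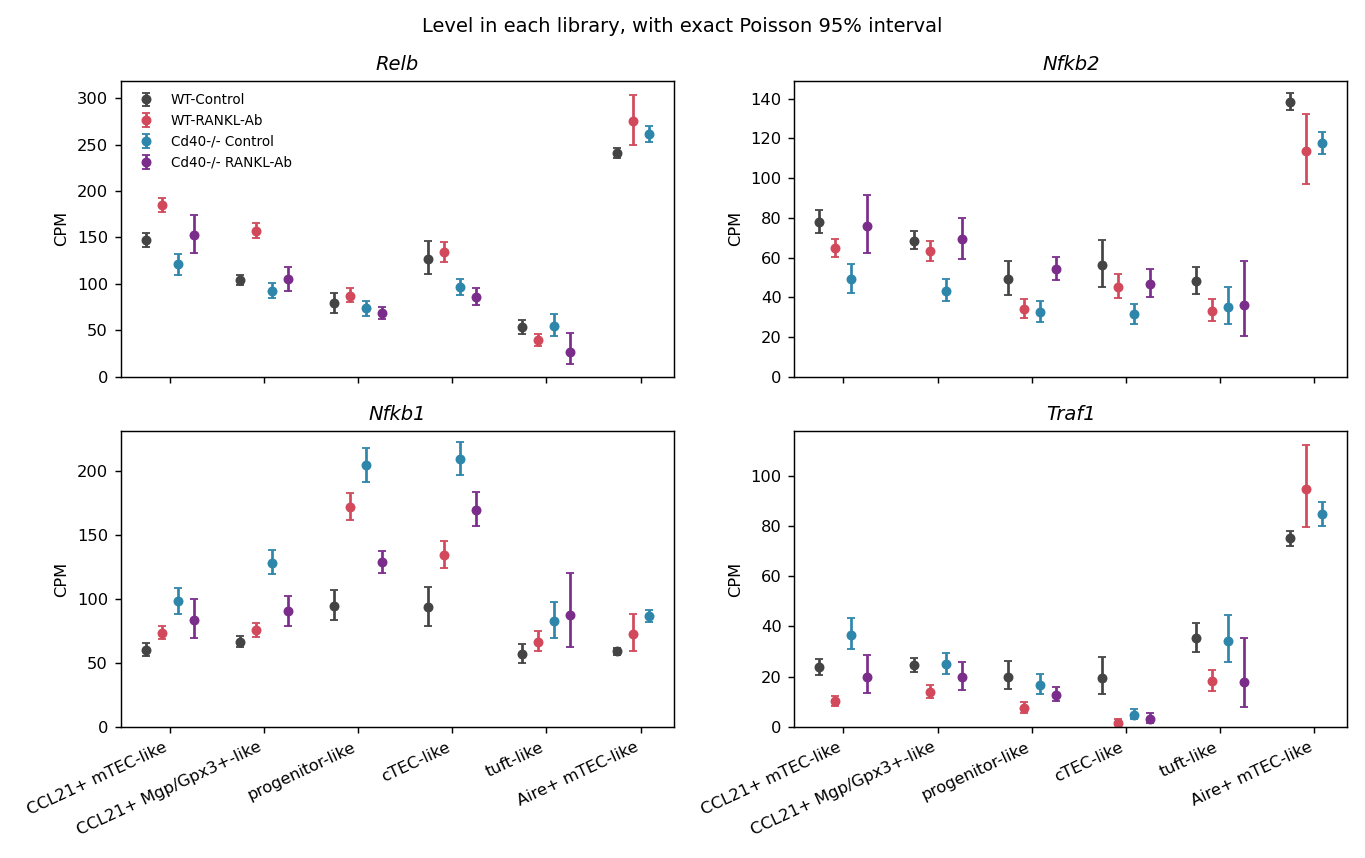
Level in CPM of Relb, Nfkb2, Nfkb1 and Traf1 in 6 cell classes (x axis) and 4 libraries (colours), with exact Poisson 95% intervals as bars, which cover counting error only. Nfkb1 in progenitor-like cells runs from 94.6 CPM in WT-Control to 204 CPM in Cd40-/- Control, and Traf1 in CCL21+ mTEC-like cells runs from 10.2 to 36.7 CPM.

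Nfkb1, which encodes p105 and p50, was higher than in WT-Control in every class compared, in all 3 other libraries. These were 14 of 14 classes in WT-RANKL-Ab, with 9 beyond the counting interval, 14 of 14 in Cd40-/- Control, with 11, and 5 of 5 in Cd40-/- RANKL-Ab, with 5. The sign held under every alternative setting in the 6 classes examined. In progenitor-like cells Nfkb1 was at 94.6 CPM (83.4 to 107), 172 (162 to 182), 204 (191 to 218) and 128.5 (120 to 137). In cTEC-like cells it was at 93.3 (78.9 to 110), 134 (124 to 145), 209 (197 to 222) and 170 (157 to 183) CPM. The values were closer in CCL21+ mTEC-like cells, at 60.4, 73.7, 98.2 and 83.7 CPM. Cd40-/- Control was thus the highest library in each of these 3 classes, and WT-Control the lowest. The same was seen in CCL21+ Mgp/Gpx3+-like cells, at 66.4, 75.6, 128 and 90.1 CPM. With 1 library per group, a trait of the WT-Control library and an effect of the 3 treatments cannot be told apart.

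A list of 11 immediate early and heat shock genes, all detected, was summed in the same cells, since dissociation is known to induce such genes. Over all cells the list stood at 2205, 2669, 2710 and 4314 CPM, the same order of libraries as for Nfkb1 and Tnfaip3. It was at 2508, 3214, 4107 and 5913 CPM in progenitor-like cells and at 990, 1344, 1598 and 2105 CPM in cTEC-like cells. Tnfaip3 had the order of the list in progenitor-like cells, while Nfkb1 was highest in Cd40-/- Control in both classes. The list in CCL21+ mTEC-like cells was at 3826, 2963, 4950 and 5961 CPM, lower in WT-RANKL-Ab than in WT-Control, where Nfkb1 was higher. Its part in the levels of Nfkb1 and Tnfaip3 was not tested.

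The other classical subunits differed less uniformly. Rel was higher in Cd40-/- Control than in WT-Control in 12 of 14 classes, 10 beyond the counting interval, with a median log2 ratio of 0.65. In CCL21+ Mgp/Gpx3+-like cells Rel was at 14.1 CPM (12.1 to 16.2), 17.1 (14.56 to 19.999), 29.7 (25.4 to 34.5) and 29.8 (23.5 to 37.2), so that both Cd40-/- libraries lay above both wild-type libraries. In Aire+ mTEC-like cells it was at 43.6, 41.5 and 64.0 CPM. Rela was higher in WT-RANKL-Ab in 12 of 14 classes, but beyond the interval in only 4 of them. In tuft-like cells Rela was at 29.5 CPM (24.5 to 35.2), 52.0 (45.4 to 59.4), 30.1 (22.4 to 39.7) and 47.3 (29.3 to 72.2), higher in the antibody library of each genotype, though in the Cd40-/- pair the intervals overlapped.

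The share of the UMIs of the 5 subunits that belonged to Relb and Nfkb2 does not depend on how a library is scaled. It is a share of transcripts and measures neither p100 processing nor the release of dimers. Over all cells this alternative share was 70.0% (69.6 to 70.5), 55.7% (54.97 to 56.46), 55.4% (54.9 to 56.0) and 40.9% (39.6 to 42.2). In WT-Control the share ran from 80.1% in cycling CCL21-low-like and 75.6% in Aire+ mTEC-like cells to 45.9% in progenitor-like cells. The share in CCL21+ mTEC-like cells was 67.4%, 66.5%, 51.0% and 61.2%, lower in Cd40-/- Control and nearly level between the wild-type libraries, whose intervals overlapped. In progenitor-like cells it was 45.9%, 33.0%, 27.6% and 38.3%, and in cTEC-like cells 55.3%, 48.6%, 32.3% and 36.6%. Cd40-/- Control thus had the lowest share of the 4 libraries in CCL21+ mTEC-like, CCL21+ Mgp/Gpx3+-like, progenitor-like and cTEC-like cells. Counted as Relb over Relb and Rela, it was the lowest only in the CCL21+ classes, while Cd40-/- RANKL-Ab was the lowest in progenitor-like cells (70.9%, 65.3%, 67.3% and 63.0%) and in cTEC-like cells (83.1%, 80.1%, 77.0% and 74.1%). Tuft-like cells, at 47.2%, 34.9%, 38.3% and 28.6%, did not follow this order.

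**Figure D4:**
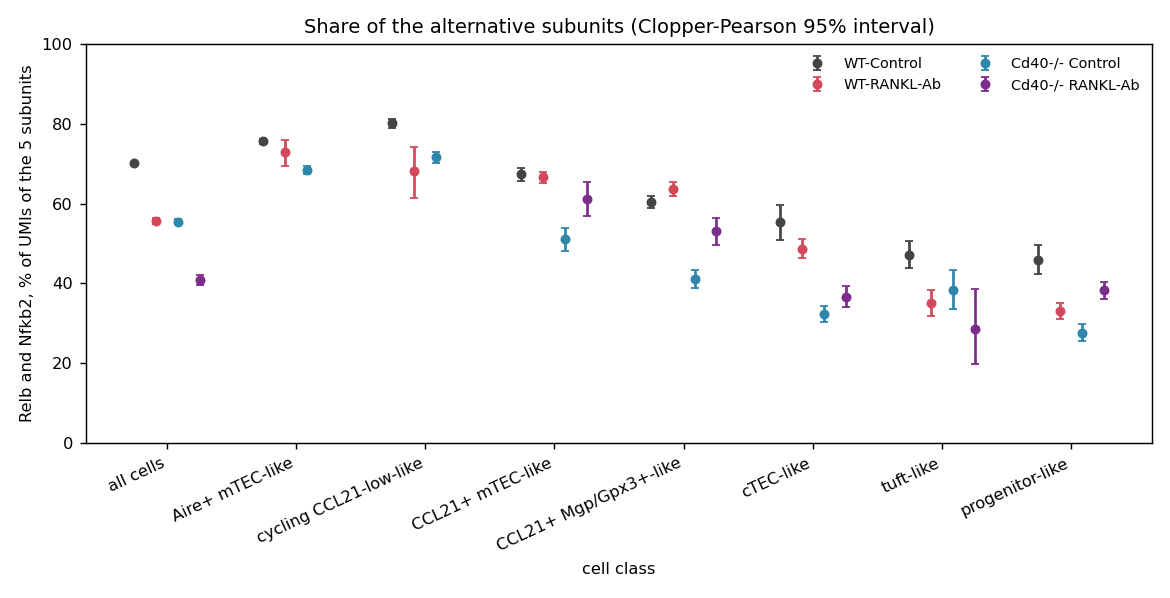
Percent of the UMIs of the 5 NF-κB subunits that belong to Relb and Nfkb2, by cell class (x axis) and library (colours), with exact Clopper-Pearson 95% intervals. In progenitor-like cells the share is 45.9% in WT-Control and 27.6% in Cd40-/- Control, and over all cells it is 40.9% in Cd40-/- RANKL-Ab.

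Among the inhibitors, Nfkbie was lower in Cd40-/- Control than in WT-Control in 14 of 14 classes, 11 beyond the counting interval, with a median log2 ratio of -0.60, although in cTEC-like and tuft-like cells an alternative setting turned the sign. Nfkbie in CCL21+ mTEC-like cells was at 55.4 CPM (50.7 to 60.5), 42.7 (39.1 to 46.6), 33.5 (27.9 to 39.9) and 44.2 (34.1 to 56.5). In Aire+ mTEC-like cells it was at 120, 107 and 87.2 CPM. Tnfaip3 was higher in Cd40-/- Control in 12 of 14 classes, 9 beyond the interval. It stood at 11.7, 14.6, 23.7 and 24.6 CPM in progenitor-like cells, at 13.2, 23.5, 35.0 and 25.3 CPM in cTEC-like cells and at 21.9, 19.0, 30.9 and 38.03 CPM in CCL21+ mTEC-like cells. In each of these the Cd40-/- Control value was above WT-Control. Tuft-like cells, where A20 transcripts were most frequent, had 48.0, 46.6, 82.6 and 33.8 CPM, with the library of both removals lowest.

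Nfkbia was at 998, 975, 886 and 767 CPM in CCL21+ mTEC-like cells and at 651, 574, 742 and 616 CPM in progenitor-like cells. The library with both removals was the lowest in the former, and in the latter the Cd40-/- Control was the highest. In CCL21+ mTEC-like cells with no Aire UMI, Nfkbia was at 863, 961, 808 and 767 CPM. There, taking off free RNA moved the log2 ratio of Cd40-/- RANKL-Ab to WT-Control from -0.38 to -0.13. In progenitor-like cells the log2 ratios to WT-Control were -0.18, 0.19 and -0.08. With classes taken from clusters they were 0.13, 0.85 and 0.78. In Aire+ mTEC-like cells Nfkbia was at 2365 CPM (2348 to 2383), 2856 (2769 to 2944) and 2690 (2664 to 2716). In cTEC-like cells it was at 889, 654, 542 and 398 CPM, highest in WT-Control. This order was not found in cells without Aire transcripts. Of the 135 cTEC-like cells of WT-Control only 100 had no Aire UMI, and in cells without one Nfkbia was at 376, 560, 472 and 389 CPM. The Aire+ mTEC marker list (Aire and Fezf2) stood at 454, 196, 63.3 and 87.1 CPM in cTEC-like cells. The log2 ratio of Cd40-/- Control to WT-Control was -0.71 in all cTEC-like cells and 0.33 in those with no Aire UMI.

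Traf1 was lower in WT-RANKL-Ab than in WT-Control in 10 of 14 classes, 7 beyond the counting interval. In CCL21+ mTEC-like cells it was at 23.7 CPM (20.7 to 27.1), 10.2 (8.48 to 12.2), 36.7 (30.9 to 43.4) and 20.1 (13.4 to 28.8). The antibody library of each genotype was thus the lower of its pair. Aire transcripts in these cells stood at 51.3, 12.4, 25.2 and 0 CPM, and in the cells with no Aire UMI the log2 ratio of Traf1 in WT-RANKL-Ab was -1.08, beside -1.22 in all of them. CCL21+ Mgp/Gpx3+-like cells had 24.7, 14.0, 25.1 and 19.7 CPM and tuft-like cells 35.3, 18.1, 34.4 and 18.0 CPM, and for the antibody in wild type the sign held under every alternative in these 3 classes. In progenitor-like cells, at 20.1, 7.54, 16.9 and 12.8 CPM, it did not hold, since classes taken from clusters turned the log2 ratio from -1.41 to 0.25. In cTEC-like cells Traf1 was at 19.5, 1.496, 4.72 and 3.22 CPM, but in those with no Aire UMI it was at 2.94, 1.37, 2.58 and 3.27 CPM, from only 3, 6, 12 and 12 UMIs. Aire+ mTEC-like cells had 75.0, 94.8 and 84.6 CPM.

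Birc3 in CCL21+ mTEC-like cells was at 61.8, 62.0, 64.1 and 60.9 CPM, with overlapping intervals. In cTEC-like cells it was at 44.1, 43.4, 42.9 and 42.7 CPM, but in those with no Aire UMI at 26.5 (17.4 to 38.5), 41.5 (35.7 to 48.0), 40.8 (35.2 to 47.0) and 42.5 (36.1 to 49.7) CPM. The log2 ratios to WT-Control then became 0.65, 0.62 and 0.68, and with classes taken from clusters 0.55, 0.73 and 0.76. In CCL21+ mTEC-like cells the log2 ratio of WT-RANKL-Ab to WT-Control was 0.0061 (-0.15 to 0.17). In Aire+ mTEC-like cells Birc3 was higher in Cd40-/- Control, at 134 CPM (128 to 140) against 104 (100 to 107) in WT-Control. Over all cells, Birc3 was nevertheless at 78.2, 49.0, 86.3 and 40.7 CPM, and the log2 ratio in Cd40-/- RANKL-Ab was -0.94, with -0.94 from make-up alone and -0.78 from make-up without thymocyte-like cells.

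**Figure D5:**
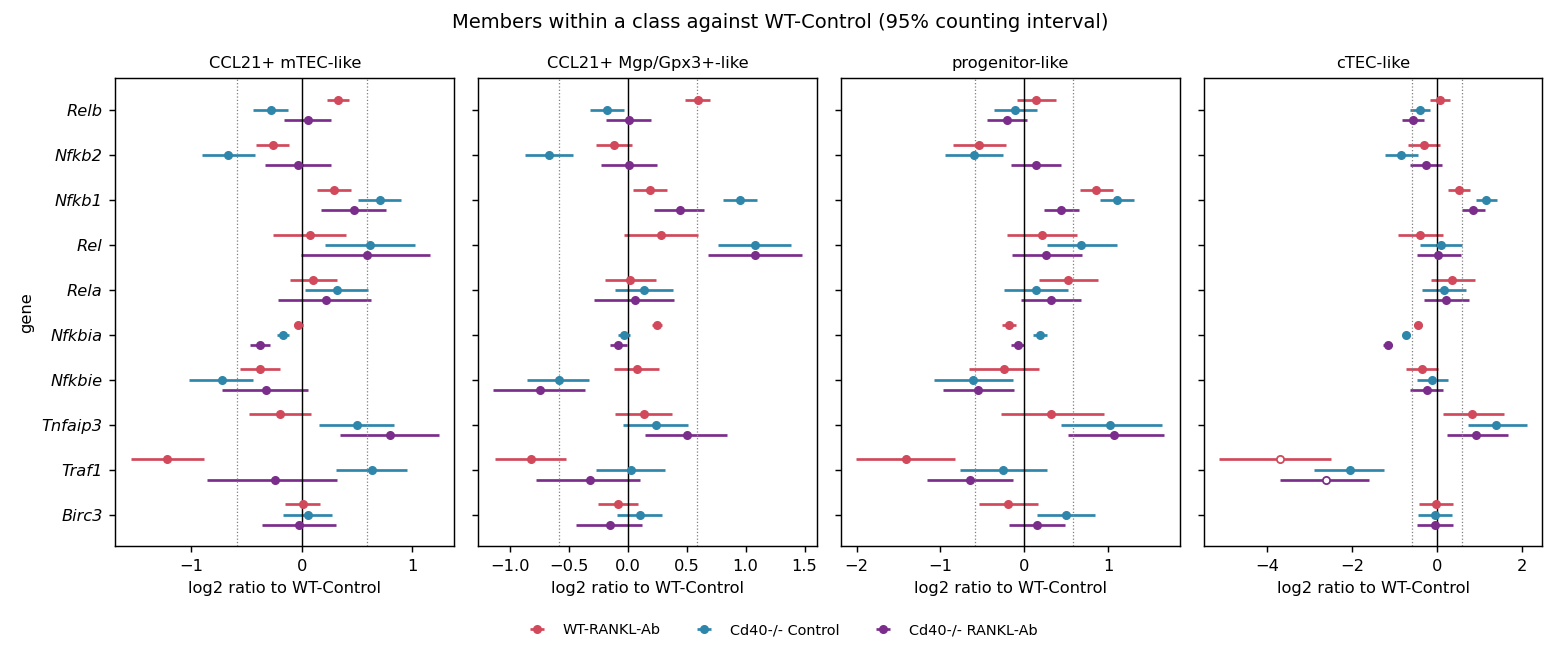
Log2 ratio to WT-Control of each member in 4 cell classes for the other 3 libraries, with exact conditional 95% intervals, dotted lines at 1.5-fold and open symbols where both libraries together held under 50 UMIs. Nfkb1 lies above 0 in every panel, with 1.11 in progenitor-like cells of Cd40-/- Control, and Birc3 stays near 0 in CCL21+ mTEC-like cells.

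The members were then counted past a 1.5-fold difference from WT-Control, for genes whose UMIs in the pair of libraries summed to 50 or more. In CCL21+ mTEC-like cells of WT-RANKL-Ab, 1 of 10 members (Traf1) was past 1.5-fold lower and 0 higher, while 7.68% of 11601 genes were lower and 12.7% higher. In Cd40-/- Control 2 members were lower (Nfkb2 and Nfkbie) and 3 higher (Nfkb1, Rel and Traf1), beside 10% and 19.5% of all genes. In Cd40-/- RANKL-Ab 0 were lower and 2 higher (Rel and Tnfaip3), beside 11.7% and 20.1%. With 10 members, 1 gene is 10% of the list.

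In progenitor-like cells of WT-RANKL-Ab, 1 member was lower (Traf1) and 1 higher (Nfkb1), beside 6.11% and 12.8% of all genes. In Cd40-/- Control 2 were lower (Nfkb2 and Nfkbie) and 3 higher (Nfkb1, Rel and Tnfaip3), beside 6.62% and 23.9%. In Cd40-/- RANKL-Ab 1 was lower (Traf1) and 1 higher (Tnfaip3), beside 6.5% and 13.6%. In cTEC-like cells Traf1 missed the minimum in both antibody comparisons, leaving 9 members. There 0 were lower and 1 higher (Tnfaip3) in WT-RANKL-Ab, beside 7.03% and 17.1%. In Cd40-/- Control 3 of 10 were lower (Nfkb2, Nfkbia and Traf1) and 2 higher (Nfkb1 and Tnfaip3), beside 9.21% and 31%. In Cd40-/- RANKL-Ab 1 was lower (Nfkbia) and 2 higher (Nfkb1 and Tnfaip3), beside 6.94% and 23.2%. In Aire+ mTEC-like cells 0 were lower and 2 higher (Rela, and Tnfaip3, whose log2 ratio turned from 0.85 to -0.66 with classes taken from clusters) in WT-RANKL-Ab, beside 22.9% and 16.8%, and 0 members passed in either direction in Cd40-/- Control, beside 8.38% and 17.9%.

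A list of 51 other genes of the pathway, comprising receptors, adaptors and kinases, further inhibitors and further target genes, was described in the same way. Cd40 itself is on this list, so a place among the lower genes in Cd40-/- libraries follows from the deletion. Its log2 ratios in Cd40-/- Control were -3.59 in CCL21+ mTEC-like, -3.26 in progenitor-like, -3.42 in cTEC-like and -4.83 in Aire+ mTEC-like cells. In CCL21+ mTEC-like cells, 49 genes of the list reached 50 UMIs in WT-RANKL-Ab and WT-Control together, of which 15 were past 1.5-fold lower and 3 higher, and their median log2 ratio was -0.05 beside 0.16 for all genes. In Cd40-/- Control 11 of 47 were lower and 6 higher, with a median of -0.14 beside 0.13, and in Cd40-/- RANKL-Ab 12 of 47 were lower and 4 higher, with -0.06 beside 0.15. Of all genes, 7.68%, 10% and 11.7% were lower in the same order of libraries, and 12.7%, 19.5% and 20.1% higher. The haematopoietic list of 9 markers stood at 109, 92.2, 72.2 and 11.1 CPM in these cells (7, 5, 6 and 3 detected) and the cTEC list of 6 markers, all detected, at 540, 1529, 1294 and 3054 CPM, and their part in these values was not tested. The lowest in WT-RANKL-Ab were the chemokine genes Ccl20 (log2 ratio -3.25) and Ccl5 (-2.22) and Tnfrsf11b, the decoy receptor for RANKL (-3.02). The highest were Chuk (0.81), encoding IKKα, Tab1 (0.78) and Map3k14 (0.61), encoding NIK. In WT-Control, Ccl20, Ccl5 and Tnfrsf11b stood at 37.5, 158 and 16.99 CPM in CCL21+ mTEC-like cells. In Aire+ mTEC-like cells of that library they were higher, at 144.9, 597.4 and 104.9 CPM. Free RNA was estimated at 17.63%, 9.563%, 9.206% and 14.02% in CCL21+ mTEC-like cells. Its part in the ratios of the list was not tested. In Cd40-/- Control the lowest after Cd40 were Cd80 (-1.32) and Tnfrsf9 (-1.13), and the highest were the deubiquitinase gene Cyld (0.86), Traf6 (0.74) and Map3k7 (0.72). In Cd40-/- RANKL-Ab, Ccl20 had 0 UMIs against 37.5 CPM in WT-Control, a log2 ratio of at most -4.18 at a floor of 3 counts, and Tnfrsf11b was at -3.62, while Ier3 (1.49), Tbk1 (1.22) and Tab1 (0.92) were the highest. The median of that library includes Ccl20 at its bound.

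In progenitor-like cells the list held 9 lower and 0 higher of 43 in WT-RANKL-Ab (median -0.01 beside 0.17), 6 lower and 9 higher of 44 in Cd40-/- Control (0.14 beside 0.20) and 10 lower and 3 higher of 43 in Cd40-/- RANKL-Ab (-0.08 beside 0.11). Of all genes in these cells, 6.11%, 6.62% and 6.5% were lower in the same order of libraries, and 12.8%, 23.9% and 13.6% higher. Ccl20, Ccl5 and the survival gene Bcl2a1d were the lowest there in both antibody libraries, with Ccl5 at a log2 ratio of -3.83 in WT-RANKL-Ab and -5.25 in Cd40-/- RANKL-Ab. The haematopoietic list moved with them, at 90.2, 8.83, 52.1 and 6.01 CPM with 5, 5, 7 and 5 of the 9 genes detected, and its part in these values was not tested. Nfkbiz, encoding the nuclear protein IκBζ, was among the highest in both Cd40-/- libraries, with log2 ratios of 1.35 and 1.43. In cTEC-like cells the counts were 8 lower and 4 higher of 41, 10 and 10 of 41, and 11 and 6 of 41, with medians of 0.01, 0.05 and 0.07 beside 0.18, 0.29 and 0.23. Of all genes in cTEC-like cells, 7.03%, 9.21% and 6.94% were lower, and 17.1%, 31% and 23.2% higher. The haematopoietic list stood at 301, 57.3, 84.7 and 23.6 CPM there (5, 6, 6 and 5 of 9 detected), and its part was not tested. In WT-RANKL-Ab, Aire+ mTEC-like cells had 3 of 51 lower and 7 higher, led by Ccl5 (1.963), Cd86 (1.51) and Ebi3 (1.33), with a median of 0.23 beside 0.0025. In Cd40-/- Control 9 of 51 were lower and 7 higher there, with a median of 0.11 beside 0.14. Of all genes in Aire+ mTEC-like cells, 22.9% were lower and 16.8% higher in WT-RANKL-Ab, and 8.38% and 17.9% in Cd40-/- Control. The haematopoietic list stood at 1072, 753 and 1186 CPM in these cells (9, 8 and 9 of 9 detected), and its part was not tested.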

How the data were processed

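Single-cell RNA libraries of the 10x Genomics platform (kit version 2 in the labels and 3.1 in the methods) were made from 4 groups, 1 library of 3 pooled mice each. The authors trimmed reads with Fastp and counted UMIs with Cell Ranger (5.1 per the labels, 5.0.1 per the matrix headers) on mm10, and deposited whole-number counts per gene and barcode, with 31053 genes and 2099 to 10590 barcodes a library. Library totals were 19175068 to 95607338 UMIs. Whether the counts had been corrected for free RNA is not stated.

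Barcodes with under 200 genes or over 25% mitochondrial UMIs were left out. Cells were gated in sequence by summed marker UMIs per 10000, with at least 3 marker UMIs. Gate limits were set after the distributions were seen, and the members and gene lists were chosen with earlier results of these data known. UMIs of a gene were summed per class and library and divided by the class total (CPM). Exact Poisson, conditional binomial and Clopper-Pearson intervals at 95% were checked on simulated data and cover counting error only. A level of 0 was set to a floor of 3 counts. Genes past 1.5-fold were counted where the UMIs of the pair of libraries summed to 50 or more. All 10 members were named. Of the pathway list, up to 3 genes with the largest and 3 with the smallest ratio per contrast were named. For Relb, Rela, Nfkbia and Birc3, the 3 genes with the highest r over classes were named, among those with at least 100 UMIs and leaving out gating genes. The 3 contrasts with WT-Control share that library. No doublet caller was run, and removal of the 5% of cells with the most UMIs in each library and class was tried instead. Other alternatives were a mitochondrial limit of 13%, cells with at least 2000 UMIs, totals without Ccl21a, means over cells, gate limits at 1.5 times their value, 31 Leiden clusters (Scanpy 1.11.5, members left out of the features) and TMM factors (edgeR 4.0.16 in R 4.3.3, no test). Counts were also taken at 200 UMIs and at 2-fold, class make-up without thymocyte-like cells, and the subunit share as Relb over Relb and Rela. Leaving out shared barcodes, taking off free RNA and leaving out cells with an Aire UMI were chosen after seeing the data. Python 3.11.15 with numpy 2.4.6, scipy 1.17.1 and pandas 2.3.3 was used.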

Additional observations from a re-analysis of the deposited data

Results flagged for a closer look

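For 6 values the antibody ratio had opposite directions in wild type and Cd40-/-, with neither counting interval reaching 0. The difference was not tested, since each group had 1 library, and 70 such differences were computed. In CCL21+ mTEC-like cells, Nfkb2 was lower with the antibody in wild type (log2 ratio -0.26) and higher in Cd40-/- (0.63), a difference of 0.90 (0.52 to 1.27). In progenitor-like cells the Nfkb2 ratios were -0.53 and 0.73, a difference of 1.27 (0.85 to 1.69), but with Leiden clusters the wild-type ratio of Nfkb2 was 0.073, and the directions were then not opposite.

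Nfkb1 ran the other way. It was higher with the antibody in wild type and lower in Cd40-/- in progenitor-like cells (0.86 and -0.67, a difference of -1.53), in cTEC-like cells (0.52 and -0.30, a difference of -0.83) and in CCL21+ Mgp/Gpx3+-like cells (0.19 and -0.51, a difference of -0.70). With TMM, the wild-type ratio in CCL21+ Mgp/Gpx3+-like cells fell from 0.19 (0.04 to 0.33) to 0.05. Tnfaip3 in cTEC-like cells had ratios of 0.83 and -0.47, a difference of -1.30 (-2.06 to -0.54), from as few as 21 UMIs in a library.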

How the results depend on the processing

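No paired analysis was possible because each group had 1 library and the labels give no shared replicate numbers. Of 270 member ratios, 0 moved beyond their interval with a mitochondrial limit of 13%, with cells of at least 2000 UMIs, without Ccl21a or without the shared barcodes. Leiden clusters moved 46 and reversed 6, TMM moved 32, gate limits 1.5 times higher moved 20, means over cells 16 and the removal of the 5% of cells with the most UMIs 11. Taking off free RNA moved 25 and reversed 1 of 150, and leaving out cells with an Aire UMI moved 24 and reversed 3 of 250. Of 60 class levels compared, Leiden clusters moved 27, means over cells 22 and gate limits 1.5 times higher 13. Removal of the 5% of cells with the most UMIs moved 5 of these levels, and totals without Ccl21a 2. The cause was not tested.

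With Leiden clusters, Traf1 in progenitor-like cells turned from -1.41 to 0.25 (WT-RANKL-Ab over WT-Control), from -0.65 to 0.23 (Cd40-/- RANKL-Ab over WT-Control) and from 0.76 to -0.019 (Cd40-/- RANKL-Ab over WT-RANKL-Ab). In cTEC-like cells Nfkbia turned from -0.71 to 0.26 (Cd40-/- Control) and Traf1 from -2.60 to 0.040 (Cd40-/- RANKL-Ab), and Tnfaip3 in Aire+ mTEC-like cells turned from 0.85 to -0.66 (WT-RANKL-Ab). In cTEC-like cells with no Aire UMI, Nfkbia was at 0.33 (Cd40-/- Control) and 0.046 (Cd40-/- RANKL-Ab, from -1.16) and Traf1 at 0.15 (Cd40-/- RANKL-Ab). Without free RNA, Nfkbie in tuft-like cells of Cd40-/- Control was at 0.29, from -0.995.

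Of the values for class make-up, leaving out thymocyte-like cells moved 14 of 30. The pathway list's counts of higher genes moved in 10 of 11 cases at 2-fold, 4 with TMM and 6 at 200 UMIs, and those of lower genes in 8, 0 and 7. In cells with no Aire UMI, the list's counts of higher genes moved in 1 of 9 cases and those of lower genes in 4.

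Counts of members past the limit are small and moved easily. At 2-fold, 0 members remained in CCL21+ mTEC-like cells of Cd40-/- Control (from 2 lower and 3 higher) and of Cd40-/- RANKL-Ab (from 2 higher). In progenitor-like cells 0 remained higher in WT-RANKL-Ab (from 1) and 0 lower in Cd40-/- Control (from 2) and Cd40-/- RANKL-Ab (from 1). Rel, at a log2 ratio of 0.68, no longer counted as higher in progenitor-like cells of Cd40-/- Control. In cTEC-like cells 0 remained higher in WT-RANKL-Ab (from 1) and Cd40-/- RANKL-Ab (from 2) and 1 lower in Cd40-/- Control (from 3), and in Aire+ mTEC-like cells 0 higher in WT-RANKL-Ab (from 2). With TMM, CCL21+ mTEC-like cells had 0 higher in Cd40-/- Control (from 3) and 1 in Cd40-/- RANKL-Ab (from 2). It gave 2 lower in progenitor-like cells of both antibody libraries (from 1), 1 and 2 lower in cTEC-like cells of WT-RANKL-Ab and Cd40-/- RANKL-Ab (from 0 and 1) and 1 lower in Aire+ mTEC-like cells of Cd40-/- Control (from 0). In Cd40-/- Control, TMM also put Relb past the limit as lower in cTEC-like cells (log2 ratio -0.67). It put Rel in progenitor-like cells of that library (0.47) short of the limit. With at least 200 UMIs, counts moved from 1 or 2 to 0 or 1 in 9 of 22 cases, all of them to fewer. In Cd40-/- Control, Traf1 in cTEC-like and Tnfaip3 in progenitor-like cells also missed 200 UMIs, so these counts of 3 fell too. With cells of at least 2000 UMIs, 3 of 22 counts moved from 2 to 1. In cells with no Aire UMI, members lower in cTEC-like cells went from 3 to 1 (Cd40-/- Control) and from 1 to 0 (Cd40-/- RANKL-Ab), and in progenitor-like cells from 2 to 1 and from 1 to 0.

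As Relb over Relb and Rela, the share over all cells was 87.0%, 78.7%, 84.4% and 68.6%, so that Cd40-/- Control lay nearer to WT-Control than in the 5-subunit share.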
